A study of Oryza sativa with 18 samples.

Results

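The data concern 8 rice genes of jasmonate signalling, out of 17905 genes that the platform annotation gives on an Affymetrix rice array. They were read by 9 of its 57381 probe sets, and all 9 passed the filter on low values. The genes are the repressor genes JAZ9 (LOC4331832), JAZ13 (LOC4348531), JAZ12 (LOC4348533) and JAZ5 (LOC4335698), the adaptor gene NINJA1, which has 2 probe sets, the transcription factor genes BHLH148 (LOC4334060) and JAMYB (LOC4351131), and the reductase gene OPDAR1 (LOC4340490). They were listed by name with earlier results of these arrays in view. Those results held the higher signal of JAZ9, JAZ13, JAZ12 and BHLH148 after 6 h of insect feeding and the line difference of NINJA1 before feeding, and these 5 genes are treated as chosen on those values. The list states no values behind the choice of any gene, so no adjusted p-value of a member is independent evidence. Levels at 0 h and changes from 0 h are therefore a description with no test. The tests concern the lines at 6 h, the lines at 48 h, and the difference between the lines in the step from 6 h to 48 h.

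The plants came from 2 lines. NIL-Bph6-RNAi is labelled susceptible to the brown planthopper, a sap-feeding insect, and NIL-Bph6, a near-isogenic line named for the resistance locus Bph6, is labelled resistant. Leaf sheath of chamber-grown plants about 3 weeks old, at the 4-leaf stage, was taken at 0 h, before any insects, and after 6 h and 48 h of feeding, with 3 arrays labelled as biological replicates in each of the 6 groups. The labels are at odds with each other: the cultivar and description fields give NIL-BPH9 for all 9 NIL-Bph6-RNAi arrays and 9311 for all 9 NIL-Bph6 arrays, and the descriptions give 3 h for the 6 h arrays and 6 h for the 48 h arrays. The groups follow the titles and source names, whose times match the series' design text, and every line or time difference rests on them. The sources used here do not give the construct, the number of RNAi clones or any pooling of plants, and the level of the targeted gene was not analysed here. P-values measure only the spread between these arrays. Unfed plants of 6 h or 48 h were not analysed here, so feeding and elapsed time cannot be told apart.

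Jasmonates are hormones made from chloroplast fatty acids by lipoxygenases, allene oxide synthases, an allene oxide cyclase and 12-oxophytodienoate reductases. The conjugate jasmonoyl-isoleucine binds the receptor COI1 together with a JAZ protein and sends the JAZ protein to degradation. Until then JAZ proteins hold transcription factors in check through the adaptor NINJA and TOPLESS corepressors. JAZ genes are themselves switched on by jasmonate, which gives a negative feedback, and wounding and chewing insects are the best known triggers in leaves.

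On the arrays, 3 of 4 green leaf markers with a probe set were high (medians 13.83 to 15.08), and RBCS1 had a median of 4.53. LSI2, a root silicon transporter, had a median of 0.88, but 3 of 8 endosperm markers (GLUA2, GLB1 and WX1), the root marker LSI1 and the flower marker MADS16 lay above the overall median of 5.776. For 17 of the 18 arrays the closest array was a replicate of the same group, the exception being NIL-Bph6 6 h replicate 3. Control probe sets at the 3' end exceeded those at the 5' end by 2.39 ± 0.19 in NIL-Bph6-RNAi and 1.78 ± 0.42 in NIL-Bph6 at 0 h (SD, n = 3 each, log2), against 2.16 in NIL-Bph6-RNAi and 2.02 in NIL-Bph6 at 6 h, and at 48 h 2.09 in NIL-Bph6-RNAi against 1.99 in NIL-Bph6. Whether this gap at 0 h plays a part in the line differences at that time was not tested. All levels are log2 signals, so a step of 1 is a 2-fold change, and levels are compared within a probe set only. Statements that the arrays of 2 groups do not overlap are descriptions. The share of all probe sets without overlap was not counted. In bulk tissue, fewer cells of a type and less RNA per cell cannot be told apart.

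JAZ9, JAZ13 and JAZ12, repressors also known as TIFY11a, TIFY11e and TIFY11d, were high at both feeding times in both lines. JAZ13 and JAZ12 lie 3 genes apart on chromosome 10, and JAZ9 lies on chromosome 3 beside JAZ11 and JAZ10. In NIL-Bph6-RNAi, JAZ9 read 8.97, 8.62 and 9.31 at 0 h, 11.46, 12.27 and 12.15 at 6 h, and 13.60, 12.19 and 12.95 at 48 h. In NIL-Bph6 it read 8.90, 9.10 and 7.94 at 0 h, 12.43, 11.35 and 12.24 at 6 h, and 9.53, 12.71 and 12.12 at 48 h. Every array with feeding was above every array at 0 h, and the 2 lines overlapped at each time. The 6 h level exceeded the 0 h level by 2.99 ± 0.60 (SE) in NIL-Bph6-RNAi and by 3.36 ± 0.60 in NIL-Bph6, and the 48 h level exceeded it by 3.95 ± 0.60 in NIL-Bph6-RNAi and 2.80 ± 0.60 in NIL-Bph6.

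JAZ13 followed the same course. Its arrays in NIL-Bph6-RNAi gave 8.91, 8.89 and 9.19 at 0 h, 11.74, 12.46 and 12.42 at 6 h, and 13.45, 12.33 and 13.01 at 48 h. Those in NIL-Bph6 gave 9.39, 9.43 and 8.99 at 0 h, 12.90, 11.95 and 12.11 at 6 h, and 10.69, 13.21 and 13.23 at 48 h. The 0 h arrays were again below all others, and the highest and lowest 48 h arrays of NIL-Bph6 lay further apart than those of any other group. At 6 h the level stood 3.21 ± 0.50 above 0 h in NIL-Bph6-RNAi and 3.05 ± 0.50 above it in NIL-Bph6, which on the linear scale is 9.26-fold and 8.28-fold.

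JAZ12 gave 11.47, 11.12 and 11.67 at 0 h, 12.96, 13.23 and 13.54 at 6 h, and 14.44, 13.91 and 14.04 at 48 h in NIL-Bph6-RNAi. In NIL-Bph6 it gave 11.78, 11.86 and 12.22 at 0 h, 13.90, 13.87 and 13.86 at 6 h, and 12.28, 13.83 and 13.69 at 48 h. All 3 NIL-Bph6-RNAi arrays were below the NIL-Bph6 arrays at 6 h and above them at 48 h. The 6 h level was above the 0 h level by 1.82 ± 0.30 in NIL-Bph6-RNAi and 1.92 ± 0.30 in NIL-Bph6. At 48 h the gain over 0 h was 2.71 ± 0.30 in NIL-Bph6-RNAi and 1.31 ± 0.30 in NIL-Bph6.

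None of these 3 repressor genes passed the test between the lines in limma. At 6 h the differences, NIL-Bph6-RNAi minus NIL-Bph6, were -0.05 ± 0.60 for JAZ9 (95% interval -1.33 to 1.23, adjusted p = 0.985), -0.11 ± 0.50 for JAZ13 (-1.17 to 0.94, adjusted p = 0.959) and -0.64 ± 0.30 for JAZ12 (-1.26 to -0.01, adjusted p = 0.452). At 48 h they were 1.46 ± 0.60 for JAZ9 (0.18 to 2.74, adjusted p = 0.125), 0.56 ± 0.50 for JAZ13 (-0.50 to 1.61, adjusted p = 0.53) and 0.86 ± 0.30 for JAZ12 (0.23 to 1.49, adjusted p = 0.0656). At 48 h the intervals of all 3 include a difference of 1, a doubling. NIL-Bph6 48 h replicate 1 was the lowest array of its group for all 3. Without it the difference was 0.50 for JAZ9, -0.29 for JAZ13 and 0.37 for JAZ12. When replicate 2 of that group was left out instead, JAZ9 and JAZ12 passed, at 2.09 (adjusted p = 0.033) and 1.14 (adjusted p = 0.0227).

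**Figure D1:**
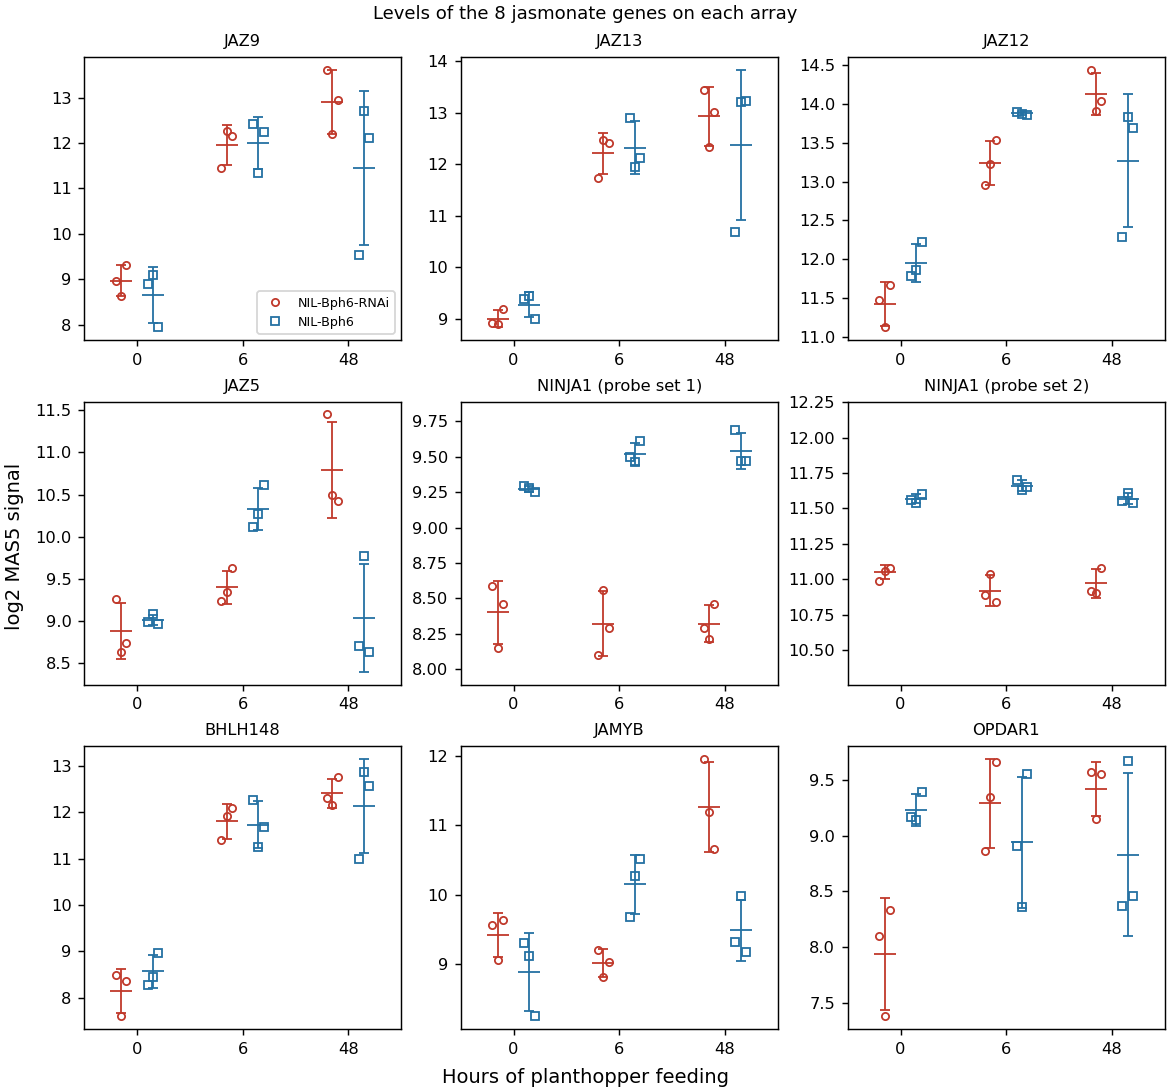
Log2 signal of the 8 genes (NINJA1 by 2 probe sets) against hours of planthopper feeding, NIL-Bph6-RNAi in red circles and NIL-Bph6 in blue squares; symbols are arrays, and the dash and bars give the mean and SD (n = 3). JAZ9, JAZ13, JAZ12 and BHLH148 sit high at 6 h and 48 h in both lines, JAZ5 and JAMYB are above the other line in NIL-Bph6 at 6 h but in NIL-Bph6-RNAi at 48 h, and NINJA1 is lower in NIL-Bph6-RNAi on every array.

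JAZ5, a repressor also called TIFY9 and located on chromosome 4, took opposite courses in the 2 lines between 6 h and 48 h. NIL-Bph6-RNAi read 9.26, 8.63 and 8.74 at 0 h, 9.24, 9.34 and 9.63 at 6 h, and 11.45, 10.49 and 10.42 at 48 h. NIL-Bph6 read 8.99, 9.09 and 8.97 at 0 h, 10.12, 10.27 and 10.61 at 6 h, and 8.71, 9.77 and 8.64 at 48 h. The lines did not overlap at 6 h, with NIL-Bph6 above, nor at 48 h, with NIL-Bph6-RNAi above. At 48 h JAZ5 was higher in NIL-Bph6-RNAi by 1.75 ± 0.29, a 3.35-fold difference (limma adjusted p = 0.00147). At 6 h the difference was -0.93 ± 0.29 and did not pass (adjusted p = 0.205).

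JAMYB encodes a MYB transcription factor known in rice as jasmonate-inducible. In NIL-Bph6-RNAi its arrays gave 9.57, 9.06 and 9.64 at 0 h, 9.21, 8.81 and 9.03 at 6 h, and 11.96, 11.20 and 10.66 at 48 h. In NIL-Bph6 they gave 9.30, 9.12 and 8.25 at 0 h, 9.68, 10.27 and 10.51 at 6 h, and 9.32, 9.99 and 9.17 at 48 h. The pattern was that of JAZ5: NIL-Bph6 above at 6 h and NIL-Bph6-RNAi above at 48 h, with no overlap at either time. The line difference at 48 h was 1.78 ± 0.33, or 3.44-fold (adjusted p = 0.00256), and at 6 h it was -1.14 ± 0.33 (adjusted p = 0.158).

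The difference between the lines in the step from 6 h to 48 h was tested directly. It was 2.68 ± 0.41 for JAZ5 (95% interval 1.80 to 3.56, adjusted p = 0.0251) and 2.92 ± 0.47 for JAMYB (1.93 to 3.91, adjusted p = 0.0283). Both genes passed, and they were the only members of the 9 probe sets to do so, where 0.415% of all probe sets tested were called. From 6 h to 48 h the JAZ5 level moved by 1.38 in NIL-Bph6-RNAi and by -1.29 in NIL-Bph6, and that of JAMYB by 2.26 in NIL-Bph6-RNAi and by -0.66 in NIL-Bph6. JAZ12 had 1.5 ± 0.42 (adjusted p = 0.135). Both calls were lost when single arrays were left out. In NIL-Bph6, leaving out replicate 3 at 6 h gave JAZ5 an adjusted p of 0.092, and leaving out replicates 1 or 3 at 48 h gave 0.063 or 0.06. In NIL-Bph6-RNAi, leaving out replicates 1 or 2 at 6 h gave 0.0733 or 0.0606. JAMYB had 0.101, 0.0653, 0.0633, 0.0733 and 0.0662 without the same arrays, while the size of the difference stayed between 2.35 and 3.05 for JAZ5 and between 2.58 and 3.23 for JAMYB over all arrays left out. The call of both genes was also lost without an intensity trend (adjusted p = 0.0557 each) and in a fit of the compared groups alone (0.0569 and 0.0564).

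NINJA1, the adaptor between JAZ proteins and corepressors, was lower in NIL-Bph6-RNAi than in NIL-Bph6 on every array. Within a line, the mean of either probe set at 6 h or 48 h lay -0.12 to 0.27 from its mean at 0 h. Its first probe set read 8.59, 8.15 and 8.46 at 0 h, 8.10, 8.56 and 8.29 at 6 h, and 8.29, 8.21 and 8.46 at 48 h in NIL-Bph6-RNAi. In NIL-Bph6 it read 9.29, 9.28 and 9.25 at 0 h, 9.50, 9.46 and 9.61 at 6 h, and 9.69, 9.47 and 9.47 at 48 h. No NIL-Bph6-RNAi array reached the lowest NIL-Bph6 array. The second probe set lay between 10.84 and 11.08 on the 9 NIL-Bph6-RNAi arrays and between 11.54 and 11.70 on the 9 NIL-Bph6 arrays.

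NINJA1 was lower in NIL-Bph6-RNAi at both feeding times. At 6 h the first probe set differed by -1.20 ± 0.14 (adjusted p = 0.000156) and the second by -0.74 ± 0.09 (adjusted p = 0.000116). These were the 2 member probe sets called at 6 h, where 0.862% of all probe sets were called. At 48 h the differences were -1.22 ± 0.14 (adjusted p = 0.000106) and -0.60 ± 0.09 (adjusted p = 0.000548). At 0 h, given as a description, the differences were -0.88 ± 0.14 and -0.52 ± 0.09. Both probe sets kept their calls at 6 h and 48 h with each array left out. The step from 6 h to 48 h differed between the lines by -0.02 ± 0.20 and 0.14 ± 0.12, and neither passed. Both probe sets carry the suffix that Affymetrix gives to sets with probes that can match other sequences, and the share of such signal was not tested.

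NINJA1 lies on chromosome 5, and some of its neighbours also differed between the lines. Of the 15 measured genes on each side, 3 of 30 were called at 0 h, 1 at 6 h and 10 at 48 h, against 75, 44 and 303 of the 1356 measured genes of the chromosome. These are 10%, 3.33% and 33.3% of the neighbours and 5.53%, 3.24% and 22.3% of the chromosome's genes. The next gene on one side, LOC4339583, differed by -0.53 at 0 h, -0.41 at 6 h and -0.62 at 48 h, and passed at 0 h and 48 h (adjusted p = 0.0417 and 0.00378). IAA19 (LOC4339588), an auxin response repressor 2 measured genes away on the other side, passed at 48 h only, with -1.27, -1.80 and -1.69 at the 3 times (adjusted p = 0.0168 at 48 h). LOC9268712, 12 measured genes away, differed by -6.82, -5.86 and -5.30, the largest differences in the window. LOC4339585, which lies between NINJA1 and IAA19, differed by -0.24, -0.03 and 0.13 and did not pass. The part of the neighbourhood in the NINJA1 difference was not tested.

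**Figure D2:**
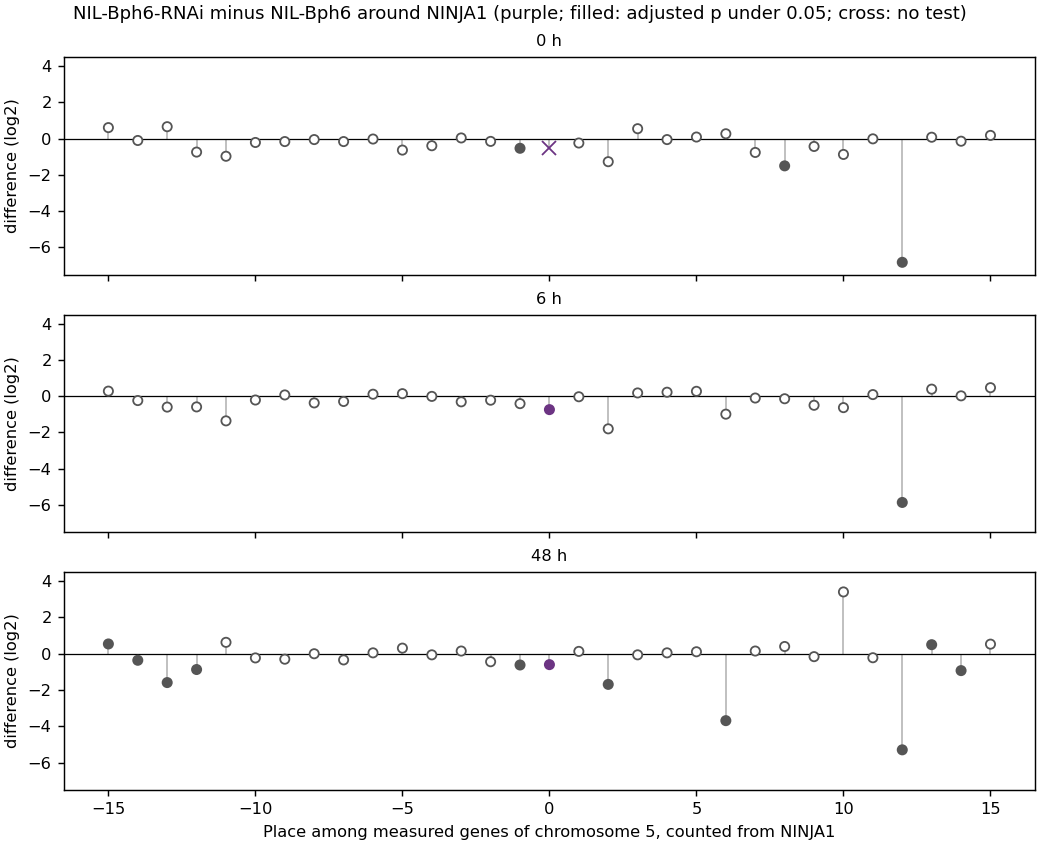
Line difference (NIL-Bph6-RNAi minus NIL-Bph6, log2) at 0 h, 6 h and 48 h for the 15 measured genes on each side of NINJA1, by their place in gene order along chromosome 5. Filled points passed limma's test, NINJA1 is purple (second probe set, with a cross at 0 h, where it has no test), and LOC9268712 stands at -6.82 to -5.30 while most neighbours lie near 0.

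BHLH148 encodes a basic helix-loop-helix factor reported in rice to bind JAZ proteins. NIL-Bph6-RNAi arrays read 8.49, 7.60 and 8.35 at 0 h, 11.39, 11.91 and 12.10 at 6 h, and 12.31, 12.15 and 12.75 at 48 h. NIL-Bph6 arrays read 8.28, 8.45 and 8.97 at 0 h, 12.26, 11.24 and 11.69 at 6 h, and 10.98, 12.87 and 12.56 at 48 h. Feeding arrays were all above 0 h arrays and the lines overlapped at each time. Its 6 h level exceeded the 0 h level by 3.66 ± 0.40 (12.6-fold) in NIL-Bph6-RNAi and 3.16 ± 0.40 (8.96-fold) in NIL-Bph6. The line difference was 0.07 ± 0.40 at 6 h (-0.78 to 0.92) and 0.27 ± 0.40 at 48 h (-0.58 to 1.12), and -0.31 at 48 h without NIL-Bph6 48 h replicate 1. Neither passed (adjusted p = 0.968 and 0.729).

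OPDAR1, named as a 12-oxophytodienoate reductase and also called OPR1, had a course unlike those of the other members. In NIL-Bph6-RNAi it read 8.10, 7.38 and 8.33 at 0 h, 8.86, 9.35 and 9.66 at 6 h, and 9.57, 9.15 and 9.55 at 48 h. In NIL-Bph6 it read 9.17, 9.14 and 9.39 at 0 h, 8.91, 8.36 and 9.55 at 6 h, and 8.37, 9.67 and 8.46 at 48 h. The 3 arrays of NIL-Bph6-RNAi at 0 h were below all 15 others, with 8.33 as their highest and 8.36 as the lowest of the others. The 0 h difference was -1.30 ± 0.35, and the 6 h level was 1.35 ± 0.35 above 0 h in NIL-Bph6-RNAi and -0.29 ± 0.35 from it in NIL-Bph6. Line differences at 6 h (0.35 ± 0.35, adjusted p = 0.761) and at 48 h (0.59 ± 0.35, -0.14 to 1.33, adjusted p = 0.301) did not pass. The reductase genes OPR4 and OPR5, also on chromosome 6, shared part of this course. At 0 h their means were 8.86 and 8.85 in NIL-Bph6-RNAi against 9.80 and 9.51 in NIL-Bph6, without overlap, though neither difference passed. At 6 h they stood 1.49 and 1.67 above 0 h in NIL-Bph6-RNAi and overlapped with 0 h in NIL-Bph6. Unlike OPDAR1, both were above 0 h on every 48 h array in NIL-Bph6 too, though neither change passed. The highest 0 h and lowest 48 h arrays there were 9.84 and 9.88 for OPR4, and 9.57 and 9.59 for OPR5.

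Over all members, 4 of the 9 probe sets were called between the lines at 48 h, where 13.6% of all probe sets were called. JAZ5 and JAMYB were higher and both NINJA1 probe sets lower in NIL-Bph6-RNAi. The 4 calls cover 3 of the 8 genes.

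**Figure D3:**
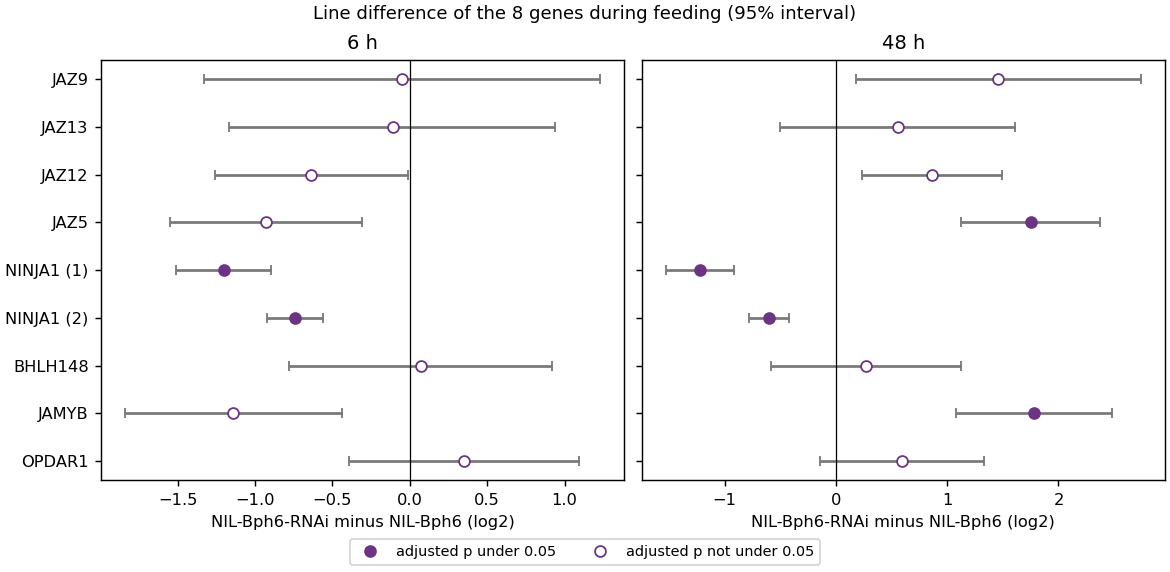
Line difference (NIL-Bph6-RNAi minus NIL-Bph6, log2) of the 9 probe sets at 6 h and 48 h, with 95% intervals; filled points passed limma's test. NINJA1 passed at both times with -1.20 and -0.74 at 6 h, and JAZ5 (1.75) and JAMYB (1.78) passed at 48 h only.

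Over the 18 arrays some members moved more alike than others, given as a description since the arrays share their groups. Pearson's r was 0.974 between JAZ9 and JAZ13, 0.953 between JAZ13 and JAZ12, and 0.976 between JAZ13 and BHLH148. JAZ5 and JAMYB had r = 0.859. After each group's mean was taken off, the same pairs had 0.951, 0.848, 0.793 and 0.721. For JAZ9, JAZ13, JAZ12 and BHLH148, NIL-Bph6 48 h replicate 1 was the lowest array of its group. The SDs of that group were 1.69, 1.46, 0.86 and 1.02. How far these correlations rest on that array was not tested. The 2 NINJA1 probe sets had 0.963 with each other over the arrays and 0.368 with group means taken off. Other pairs were also alike in part. Over the arrays JAZ5 had 0.783 with JAZ12 and 0.734 with JAZ9, and JAMYB had 0.617 with JAZ9 and 0.458 with BHLH148. OPDAR1 ranged from 0.264 with JAMYB to 0.602 with JAZ12. With group means taken off, JAZ5 had 0.679 with OPDAR1, and JAMYB had -0.114 with BHLH148. Over the arrays NINJA1 had r between -0.209 and 0.084 with the other members.

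Among 2812 candidate probe sets of named genes, those most like the members over the 18 arrays included further JAZ genes. JAZ10 had r = 0.96 with JAZ9, 0.974 with JAZ13 and 0.98 and 0.979 (by 2 probe sets) with JAZ12. ABA8OX1, an abscisic acid 8'-hydroxylase, was among the 3 closest to JAZ9 (0.949), JAZ13 (0.979) and BHLH148 (0.981). The others were HSF07 (0.959) for JAZ9, OsTPP7 (0.973) for JAZ13, BC1L9 (0.973) for JAZ12, and DREB1G (0.982) and MYB2 (0.979) for BHLH148. JAZ5 was closest to BFRP (0.933), LOG (0.908) and JAZ6 (0.895), and JAMYB to NH3 (0.89), GDH2 (0.886) and OsPP2C12 (0.879). NINJA1, by its second probe set alone, had SDH3-2 (0.941), IAA19 (0.891) and ENR (0.875), and OPDAR1 had ACC2 (0.882), GR (0.864) and MPH1 (0.845). That NINJA1 probe set lay apart by line on every array, and shared regulation with these genes was not tested.

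Other genes named for the pathway were taken from a list of 40 by name, of which 36 had a probe set and 29 passed the filter. Roles follow these names, and the part of each gene in jasmonate synthesis or signalling was not tested. The repressor role includes TIFY1A, TIFY2A and TIFY2B, TIFY family genes outside the JAZ genes. For a gene with several probe sets (JAZ10, JAZ4, OPR5, CM-LOX2 and TPR1), counts and differences use the set with the highest mean. That of JAZ4 carries the same suffix as the NINJA1 sets. Those used for JAZ6, JAZ10, TIFY2B and TPR1 carry a different suffix, _s_at, and whether their probes match other genes was not tested. MYC2, RERJ1, MED25, JMT and the catabolic enzymes were not analysed here. Between the lines at 6 h, 0 of 29 were called by limma's test (5 at an unadjusted p under 0.05, as were 10.9% of all probe sets tested), with a median of 0.03 against -0.01 over all probe sets tested. At 48 h, 8 of the 29 were higher and 0 lower in NIL-Bph6-RNAi, where 4.8% of all probe sets were called higher and 8.79% lower. At an unadjusted p under 0.05 there were 15, and 27.1% of all. The median was 0.23, against -0.00014 over all. Among the 8 other JAZ genes that passed the filter, 6 were higher, namely JAZ11 (1.16 ± 0.29), JAZ6 (0.98 ± 0.22), JAZ3 (0.59 ± 0.15), JAZ4 (0.47 ± 0.14), JAZ7 (0.38 ± 0.10) and JAZ1 (0.34 ± 0.08). From 0 h to 48 h JAZ1 and JAZ7 were not called in NIL-Bph6-RNAi, with means of 13.85 and 13.78 for JAZ1 and 14.11 and 14.14 for JAZ7. In NIL-Bph6 they changed by -0.37 and -0.39 and were called lower. JAZ8 (0.95 ± 0.40) and JAZ10 (0.50 ± 0.23) did not pass between the lines. Of 12 synthesis genes, 2 were higher: the lipoxygenase gene CM-LOX1 (1.58 ± 0.46, adjusted p = 0.0313) and the allene oxide synthase gene AOS2 (1.40 ± 0.19, adjusted p = 0.000346). The activating gene JAR1, the 3 receptor genes and the 2 corepressor genes were not called. Of these, the receptor gene COI1 stood at -0.29 ± 0.12 (adjusted p = 0.134), and its 3 NIL-Bph6-RNAi arrays were below the NIL-Bph6 arrays. TIFY2B, a TIFY family gene outside the JAZ genes, had -0.33 ± 0.15 (adjusted p = 0.158). The count of 8 became 3, 4 and 4 when 1 of NIL-Bph6 48 h replicate 1, NIL-Bph6 48 h replicate 3 or NIL-Bph6-RNAi 48 h replicate 1 was left out, and 13 without NIL-Bph6 48 h replicate 2. That of 6 JAZ genes became 2, 3, 3 and 8 in the same order. In a fit of the compared groups alone the counts were 2 of 29 genes and 1 JAZ gene, and with a change of at least 1 also required they were 3 and 1. Calls over all probe sets fell as well in both settings, from 4449 of 32732 to the counts given with the alternatives. Whether the list stands out from all probe sets there was not tested.

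**Figure D4:**
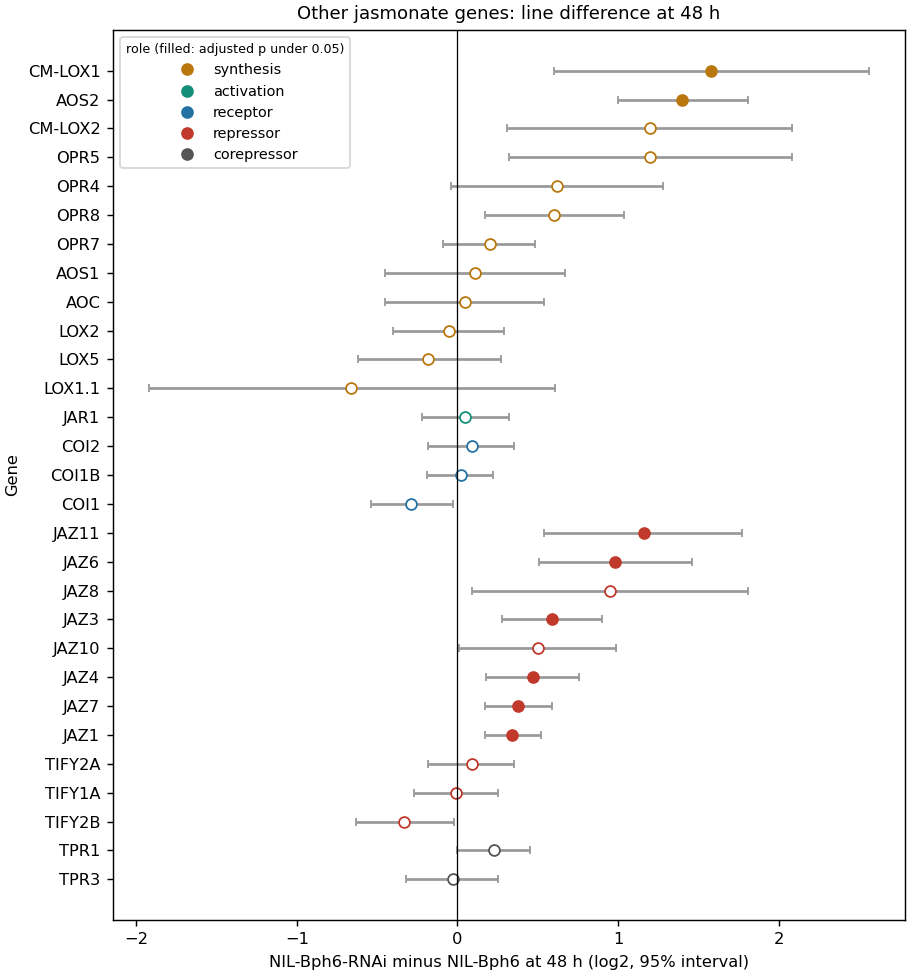
Line difference at 48 h (NIL-Bph6-RNAi minus NIL-Bph6, log2, with 95% intervals) of the 29 other jasmonate genes that passed the filter, coloured by role; filled points passed limma's test. The 8 filled points, 2 synthesis and 6 JAZ genes, all lie above 0, while JAR1, the receptors and the corepressors are open points, with COI1 at -0.29.

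JAZ11 shows the spread behind these calls. At 48 h it read 13.86, 13.68 and 13.72 in NIL-Bph6-RNAi and 11.75, 13.44 and 12.61 in NIL-Bph6, so the groups did not overlap but NIL-Bph6 spanned 11.75 to 13.44. CM-LOX1 read 10.86, 9.85 and 10.19 in NIL-Bph6-RNAi and 8.03, 9.63 and 8.49 in NIL-Bph6. AOS2 read 11.70, 11.38 and 11.68 in NIL-Bph6-RNAi and 9.86, 10.62 and 10.07 in NIL-Bph6. Within the 48 h group of NIL-Bph6, replicate 1 was the lowest array for all 12 JAZ genes kept except JAZ5 and JAZ3.

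**Figure D5:**
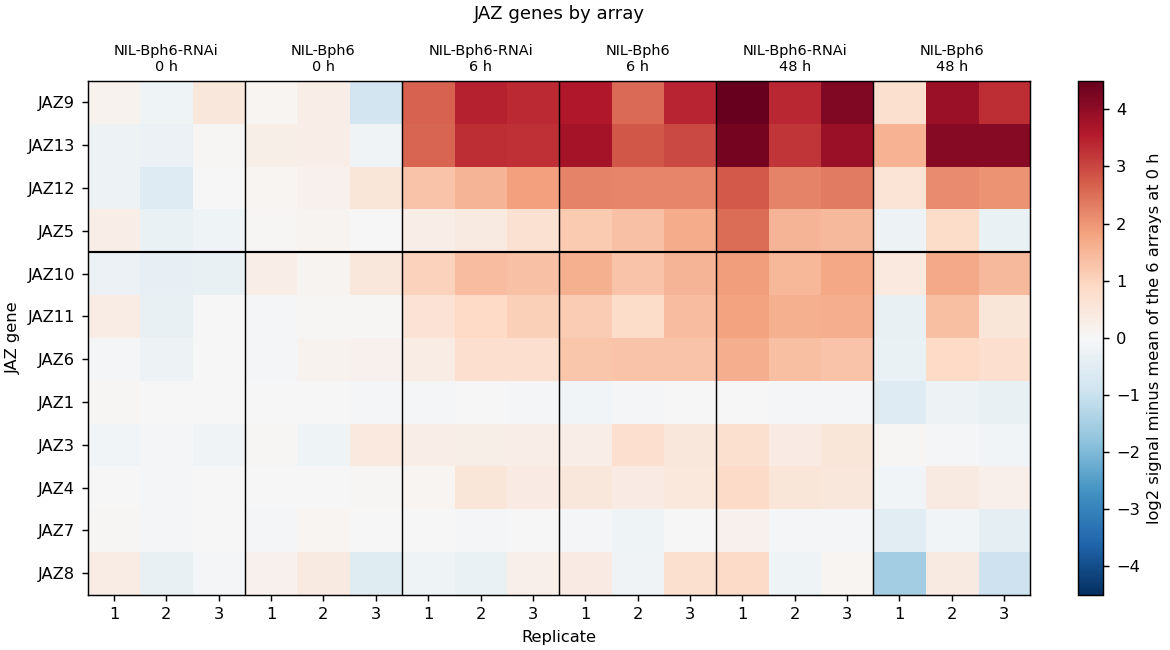
Log2 signal of 12 JAZ genes on the 18 arrays relative to the mean of the 6 arrays at 0 h (colour; red higher, blue lower), the 4 members above the line. JAZ9, JAZ13 and JAZ12 are red on all arrays with feeding in both lines, and all 3 are palest among the 48 h arrays on NIL-Bph6 48 h replicate 1, where JAZ9 read 9.53.

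Before feeding, 0 of the 29 other genes differed between the lines by the adjusted test (2 at an unadjusted p under 0.05, as were 15.8% of all probe sets), where 0.544% of all probe sets were called higher and 0.862% lower. From 0 h to 6 h, 5 rose and 0 fell in NIL-Bph6-RNAi, where 3.7% of all probe sets rose and 1.61% fell. They were the lipoxygenase LOX1.1 (2.76), AOS2 (1.10), the reductases OPR5 (1.67) and OPR4 (1.49), and JAZ10 (1.56). In NIL-Bph6, 6 rose and 0 fell, where 3.52% and 1.6% of all did so: CM-LOX1 (1.66), AOS2 (1.15), AOS1 (1.10), JAZ11 (1.11), JAZ10 (1.14) and JAZ6 (1.18). Whether the lines differ in these sets was not tested here. From 0 h to 48 h, 13 rose and 2 fell in NIL-Bph6-RNAi (16.7% and 16.6% of all), and 6 rose and 4 fell in NIL-Bph6 (8.18% and 7.48% of all). The 4 that fell in NIL-Bph6 were JAZ7 (-0.39), JAR1 (-0.39), TIFY1A (-0.38) and JAZ1 (-0.37).

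These counts moved with single arrays. The 5 genes called from 0 h to 6 h in NIL-Bph6-RNAi became 2 without its 0 h replicate 2 or 6 h replicate 3 and 3 without its 6 h replicate 1. The 6 in NIL-Bph6 became 3 without its 0 h replicate 1 or 6 h replicate 1. The 10 called from 0 h to 48 h in NIL-Bph6 became 4 without its 0 h replicate 1 or 48 h replicate 3 and 5 without its 0 h replicate 2 or 48 h replicate 2, with 4 to 8 over all arrays left out. In NIL-Bph6-RNAi the 15 called from 0 h to 48 h ran from 14 to 16.

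In the step from 6 h to 48 h, 3 of the 29 differed between the lines, all with the higher change in NIL-Bph6-RNAi, where 0.26% of all probe sets did so. They were CM-LOX1 (3.14 ± 0.65, adjusted p = 0.0462), JAZ6 (1.63 ± 0.32, adjusted p = 0.0376) and AOS2 (1.38 ± 0.27, adjusted p = 0.0376). CM-LOX1 and JAZ6 shared the course of JAZ5 and JAMYB. CM-LOX1 had means of 7.72 in NIL-Bph6-RNAi and 9.28 in NIL-Bph6 at 6 h, and 10.30 in NIL-Bph6-RNAi and 8.72 in NIL-Bph6 at 48 h. JAZ6 had 12.43 in NIL-Bph6-RNAi and 13.08 in NIL-Bph6 at 6 h, and 13.24 in NIL-Bph6-RNAi and 12.26 in NIL-Bph6 at 48 h. At 6 h the line difference in limma passed for neither CM-LOX1 (adjusted p = 0.169) nor JAZ6 (adjusted p = 0.259). For AOS2 the line means were close at 6 h, at 9.99 ± 0.13 in NIL-Bph6-RNAi and 9.96 ± 0.28 in NIL-Bph6 (SD, n = 3 each), and apart at 48 h, at 11.59 ± 0.18 in NIL-Bph6-RNAi and 10.18 ± 0.39 in NIL-Bph6. The count of 3 was 0 without each of NIL-Bph6 6 h replicates 1 and 3, NIL-Bph6 48 h replicates 1 and 3, NIL-Bph6-RNAi 6 h replicates 1 and 2 and NIL-Bph6-RNAi 48 h replicates 1 and 3, and 1 without NIL-Bph6 6 h replicate 2.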

How the data were processed

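Affymetrix rice arrays measured RNA of leaf sheath in 6 groups of 3 arrays, 18 in all, as sample titles and source names give them. The deposited values are log2 MAS5 signals, per the submitters' processing notes and as read from the values, whose trimmed linear mean was about 500.07 on every array. The sources used here name no further steps. Precision is limited by the number of arrays.

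After 123 control probe sets were left out, 32732 of 57258 had a value above the overall median (5.776) on 3 or more arrays and were tested. Presence calls were not used. Of all probe sets, 22436 had exactly 1 gene in the platform annotation, 95 had several and 34850 had none; a RefSeq table gave names and gene order alone. With limma 3.58.1 in R 4.3.3, group means were fitted over the 18 arrays with an intensity trend. Probe sets with p under 0.05 after Benjamini-Hochberg adjustment over all 32732 were called. The procedure was tested on simulated data in which probe sets varied independently. Such data cannot show how the results depend on single arrays.

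The members, the other jasmonate list (40 genes, 2 chance name matches left out), the tests and the rules for named genes were chosen with earlier results of these data known. All members are named, up to 4 called list genes per role, with all called JAZ genes given after their values were seen, and for each member the 3 probe sets of named genes with the highest Pearson r over the arrays. Alternatives were quantile normalization, median centring, other filters, an offset of 9.657 before the logarithm, no trend, a replicate block, array weights, a minimum change, the compared groups alone and each array left out. Their use on the list counts was added after the data had been seen. Tables and figures were made in Python 3.11.15 with matplotlib 3.10.9, pandas 2.3.3 and numpy 2.4.6.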

Additional observations from a re-analysis of the deposited data

Results flagged for a closer look

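The lines differed in their change from 6 h to 48 h of feeding, by a direct test of that difference (NIL-Bph6-RNAi minus NIL-Bph6, log2, limma), for 2 members and 3 other jasmonate genes. The differences were 2.68 for JAZ5, 2.92 for JAMYB, 3.14 for CM-LOX1, 1.63 for JAZ6 and 1.38 for AOS2, with adjusted p-values of 0.0251, 0.0283, 0.0462, 0.0376 and 0.0376. JAZ5 and JAMYB were lower in NIL-Bph6-RNAi than in NIL-Bph6 on every 6 h array and higher on every 48 h array. The same held for JAZ12, JAZ6 and CM-LOX1. The share of all probe sets with such a change of order was not counted. At 6 h the limma line difference passed for neither JAZ5 (adjusted p = 0.205) nor JAMYB (adjusted p = 0.158). Nor did it pass for JAZ12 (adjusted p = 0.452), JAZ6 (adjusted p = 0.259) or CM-LOX1 (adjusted p = 0.169). All 5 calls of the direct test fell away when some single arrays were left out, as given with each result. With 3 arrays a group, single arrays were not tested for lying apart.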

How the results depend on the processing

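The NINJA1 calls at 6 h and 48 h and the JAZ5 and JAMYB calls at 48 h passed under all alternatives run, except that the second NINJA1 probe set fell away where a change of at least 1 was also required (-0.74 at 6 h and -0.60 at 48 h). With array weights JAZ5 (-1.06) and JAMYB (-1.10) also passed at 6 h and JAZ12 (1.55) in the step from 6 h to 48 h. At 6 h, 4 of 9 member probe sets were then called, against 2 in the report and 1 with the minimum change. Calls over all probe sets at 6 h rose with array weights too, above the 282 of the report. In the step from 6 h to 48 h the member count of 2 was 0 without the trend and 0 with only the compared groups, and 0 to 2 with single arrays left out. The member counts at 48 h were 4 to 6 and at 6 h 2 to 2 with single arrays left out. Other JAZ genes called at 48 h numbered 1 with the minimum change, 1 with only the compared groups, and 2 to 8 with single arrays left out.

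Of the 29 other jasmonate genes, those called from 0 h to 6 h numbered 8 in NIL-Bph6-RNAi and 15 in NIL-Bph6 with array weights, and 8 in NIL-Bph6-RNAi with only the compared groups. From 0 h to 48 h, 17 were called in NIL-Bph6 with array weights, 6 with median centring, 2 with only the compared groups and 1 with the minimum change, which left 9 in NIL-Bph6-RNAi. Between the lines, array weights gave 3 at 6 h, 2 at 0 h and 6 in the step from 6 h to 48 h, where median centring, no trend and only the compared groups gave 0. Only the compared groups gave 1 at 0 h, and leaving out NIL-Bph6-RNAi 6 h replicate 2 gave 1 at 6 h. In these comparisons array weights raised the calls over all probe sets too, as given below. The shares of the list and of all probe sets were not compared.

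Over all probe sets, the 136 calls in the step from 6 h to 48 h became 56 with median centring, 90 without a filter, 9 without the trend, 1039 with array weights, 6 with only the compared groups, and 0 to 1036 with single arrays left out. Line calls became 727 at 6 h and 5247 at 0 h with array weights, 289 at 0 h and 2808 at 48 h with only the compared groups, and 2240 at 48 h with the minimum change. In the report they were 282 at 6 h and 4449 at 48 h, of 32732 tested. With single arrays left out they ran from 225 to 850 at 0 h, 179 to 233 at 6 h and 2585 to 3983 at 48 h. Changes from 0 h to 6 h gave 3941 calls in NIL-Bph6-RNAi and 8597 in NIL-Bph6 with array weights, 828 and 865 with the minimum change, and 669 to 1498 and 792 to 1412 with single arrays left out. Those from 0 h to 48 h gave 11378 in NIL-Bph6 with array weights, 5395 in NIL-Bph6-RNAi and 2106 in NIL-Bph6 with the minimum change, and 8176 to 10314 and 3350 to 5274 with single arrays left out. The causes were not tested.

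Differences near 0 that never passed changed sign. The JAZ9 difference at 6 h was 0.045 with median centring and -0.37 to 0.20 with single arrays left out, and that of BHLH148 was -0.13 with array weights and -0.18 to 0.33. JAZ13 ran from -0.30 to 0.18 at 6 h and from -0.29 to 0.98 at 48 h, and BHLH148 from -0.31 to 0.64 at 48 h. In the step from 6 h to 48 h the first NINJA1 probe set had 0.051 with quantile normalization, 0.094 with array weights and -0.13 to 0.10 with single arrays left out, against -0.18 to 1.09 for JAZ13, -0.38 to 0.57 for BHLH148 and -0.063 to 0.66 for OPDAR1.

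The groups share replicate numbers, but over 45 pairs of same-numbered arrays the correlation of deviations ran from -0.25 to 0.28, with 3 over 0.1, so the numbers were not taken as pairs. With the replicate number as a block, 261 probe sets were called at 6 h, 4415 at 48 h and 167 in the step from 6 h to 48 h; JAZ5 and JAMYB kept their calls in that step (adjusted p = 0.0361 each).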
